A study of Rattus norvegicus with 16 samples.

Results

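The rat MHC and antigen presentation genes are 50 of the 26583 gene names on the array, read by 60 of its 30367 probes. They were chosen by name, as every probe whose gene name begins with RT1-, the name of the rat MHC, or is Cd74, B2m, Tap1, Tap2, Tapbp, Ciita, Cd80 or Cd86. Of the 60 probes 52, for 42 genes, are RT1 probes. A probe was tested if it was well above the array background in every rat of at least 1 group. This left 50 of the 60, namely 8 of 12 class II probes, 3 of 3 classical class I (class Ia) probes, 33 of 38 other class I probes, B2m, Tap1, Tap2, Tapbp, Cd80 and Cd86. Where a member passed this filter through 1 group alone, every other group held a rat not above background, so the filter favoured a difference between groups. The 10 probes that did not pass were RT1-Ba, RT1-DOa, RT1-DOb, RT1-Ha, Ciita, RT1-M10-1, RT1-M2, RT1-M5 and probes 2 and 3 of RT1-T18. Ciita, the master regulator of class II genes, was well above background in 0 of 16 rats.

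The study asked how compounds given after traumatic brain injury (TBI) change gene expression in the hippocampus. Whole hippocampus was taken from adult male Sprague-Dawley rats, an outbred strain whose RT1 genotype is not given in the sources used here, and an exact age is not given either. The groups were 3 Naive rats (no injury and no treatment), 2 Sham rats (anesthetized and prepared for injury), 3 TBI rats (severe fluid-percussion injury) and 3 injured groups given a compound. These were 3 TBI+PMI-006 rats (250 mg/kg by gavage), 3 TBI+JM6 rats (400 mg/kg by gavage) and 2 TBI+E2 rats (17β-estradiol, 33 ug/kg, named E33 in the labels). Tissue was taken 24 h after injury or the equivalent time, each array came from 1 rat, and whether TBI rats received a vehicle is not given.

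MHC class I molecules display peptides from inside the cell to CD8+ T cells and need the light chain B2m. Their peptides are carried into the endoplasmic reticulum by Tap1 and Tap2 and loaded with the help of tapasin (Tapbp). Class II molecules display peptides from the endosome to CD4+ T cells, are guided there by the invariant chain Cd74, and exchange its remnant for peptide on RT1-DM. Class I is low in most cells of the healthy brain, class II is found chiefly on microglia, perivascular macrophages and infiltrating leukocytes, and both respond to interferon gamma.

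The genes carry known control elements. Class II promoters hold an X box, bound by the RFX complex, and a Y box, bound by NF-Y, and Ciita acts through them. Promoters of 40 of the 50 genes were found by symbol among 33469 RefSeq promoters of the GRCr8 assembly, each 250 bases before and 50 after the start. The letters CAACNGATG, as in an X box, stood in 0.586% of all promoters on either strand, and among members in RT1-Da, RT1-Db1 and RT1-DOb. The letters CCAAT stood in 37.5% of all promoters. These promoters are shown because RT1-Da and RT1-Db1 code for chains whose signal is described below, while RT1-DOb was above background in 1 of 16 rats; the capitals mark both motifs, with ATTGG as CCAAT on the other strand, and the regions are chr20:4515314-4515390 (+), chr20:4560193-4560293 (-) and chr20:4627556-4627655 (-).
RT1-Da: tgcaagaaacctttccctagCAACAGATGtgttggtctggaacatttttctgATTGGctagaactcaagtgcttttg
RT1-Db1: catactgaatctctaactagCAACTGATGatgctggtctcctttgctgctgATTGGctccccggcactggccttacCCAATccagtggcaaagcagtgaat
RT1-DOb: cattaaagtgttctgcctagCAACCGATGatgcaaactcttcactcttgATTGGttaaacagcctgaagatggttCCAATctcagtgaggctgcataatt

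Class I promoters hold enhancer A, which binds NF-kappa B factors, and an interferon element. The palindrome of 4 G, ATT and 4 C, as in enhancer A, stood in 21 of the 33469 promoters (0.0627%), and 7 of those belonged to members, namely RT1-A1, RT1-A2, RT1-CE4, RT1-CE10, RT1-CE11, RT1-CE13 and RT1-CE16. TTTC, any 2 bases and TTTC, as in an interferon element, stood in 3.92% of all promoters and among members in B2m, Tap1, Tap2, Tapbp, RT1-N3, RT1-S2 and RT1-S3. TTCNNNGAA, as in an element of interferon gamma, stood in 8.87% of all promoters and in those of Cd80 and RT1-M3-1. All searches covered both strands. The regions, with the motif in capitals, are chr20:4907063-4907113 (+), chr20:3385143-3385193 (-), chr20:3509320-3509370 (-) and chr20:4668635-4668684 (-), and they are shown because RT1-CE10 and RT1-CE4 were called in the comparisons below, RT1-A1 is the classical gene and Tap1 serves all class I molecules.
RT1-A1: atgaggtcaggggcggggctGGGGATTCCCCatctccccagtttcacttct
RT1-CE10: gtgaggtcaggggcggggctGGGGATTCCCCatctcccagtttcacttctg
RT1-CE4: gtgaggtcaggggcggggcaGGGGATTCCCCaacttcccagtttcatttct
Tap1: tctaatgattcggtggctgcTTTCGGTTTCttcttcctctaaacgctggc

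Class I genes are alike in sequence, and so are their probes of 60 bases. Among the 36 tested class I RT1 probes the longest run shared with another member probe had a median of 15 and a maximum of 43 bases, and 11 shared 20 bases or more. Among the 7 tested class II RT1 probes the longest was 9 bases. Each probe is reported on its own, and whether it also binds transcripts of related genes was not tested. The following probes share such runs; capitals mark the run shared with RT1-A1 probe 2, and in that probe the run shared with RT1-A2.
RT1-A1 probe 2: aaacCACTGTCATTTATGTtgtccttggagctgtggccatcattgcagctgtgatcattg
RT1-A2: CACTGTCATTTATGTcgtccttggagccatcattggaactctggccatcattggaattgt
RT1-CE16: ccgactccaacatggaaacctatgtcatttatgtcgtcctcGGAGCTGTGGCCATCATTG
RT1-S3: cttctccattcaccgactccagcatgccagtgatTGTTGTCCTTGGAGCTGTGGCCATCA

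On rn4, the build of the array's design, they lie at chr20:5059134-5059193 (+), chr20:5024199-5024258 (+), chr20_random:37900-37959 (-) and chr20:2817942-2818001 (+). The next probes share runs of 43 (RT1-CE5 probe 1) and 26 bases (RT1-M6-1 probe 1) with RT1-S2 probe 1, in which the run shared with RT1-CE5 probe 1 is marked, and lie at chr20:2795080-2795139 (+), chr20:3510942-3511001 (-) and chr20:1660276-1660335 (+). RT1-CE10, at chr20:3469045-3469104 (+), is printed last because its difference from TBI rats was the largest of the class I probes in each drug group.
RT1-S2 probe 1: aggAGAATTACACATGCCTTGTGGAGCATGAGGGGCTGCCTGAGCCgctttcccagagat
RT1-CE5 probe 1: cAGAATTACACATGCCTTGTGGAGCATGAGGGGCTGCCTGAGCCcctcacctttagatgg
RT1-M6-1 probe 1: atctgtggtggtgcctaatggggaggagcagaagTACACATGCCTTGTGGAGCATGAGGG
RT1-CE10: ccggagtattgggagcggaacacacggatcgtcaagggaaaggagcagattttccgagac

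Signals were divided by the 75th percentile of each array's probes above background and put on a log2 scale, so 1 unit is a doubling, and a level of one probe is not set against that of another. Calls rest on limma over all 16 arrays, with p-values adjusted (Benjamini-Hochberg) over all tested probes and a threshold of 0.05. The arrays were scanned in 2 sessions of 8. The Naive, Sham and TBI arrays made up one and had 16282 to 18245 probes above background, and the drug arrays made up the other and had 20259 to 24984. In drug vs. TBI comparisons, group and session cannot be told apart. Sham arrays shared a slide with Naive rats 1 and 2, and TBI arrays shared another with Naive rat 3.

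After injury, 3 class II probes were higher than after sham surgery. In TBI vs. Sham 7 of the 50 tested members were called (14%, 5 higher and 2 lower), where 9.41% of all tested probes were called (2.93% higher and 6.49% lower). Of the 8 class II probes, 3 were called and all 3 were higher: Cd74, RT1-Da, the alpha chain of the RT1-D molecule, and RT1-DMb, the beta chain of the peptide exchanger. The median class II difference was 2.08 with 8 of 8 above 0 (7 of 8 under quantile normalization, with a median of 1.99), and the median of all tested probes was -0.03. All 3 TBI rats were above both Sham rats at 16 of 50 members and below both at 6, where this held for 17.6% and 24.2% of all tested probes.

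Cd74 stood at -0.11, 0.59 and 0.1 in Naive, -0.97 and -1.2 in Sham, 0.26, 1.61 and 2.01 in TBI, 1.6, 3.07 and 0.91 in TBI+PMI-006, 1.38, 1.21 and 1.08 in TBI+JM6 and 1.14 and 1.34 in TBI+E2 rats. All 3 TBI rats were above both Sham rats, but TBI rat 1 was below Naive rat 2. The TBI vs. Sham difference of Cd74 was 2.38 (SE 0.56, 5.21-fold, adjusted p = 0.0226).

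RT1-Da stood at -2.23, -1.36 and -1.81 in Naive, -2.69 and -2.64 in Sham, -1.63, 0.32 and 0.57 in TBI, 0.19, 1.84 and -0.37 in TBI+PMI-006, 0.5, -0.23 and -0.36 in TBI+JM6 and -0.07 and 0.14 in TBI+E2 rats. TBI rat 1 lay within the range of the Naive rats and TBI rats 2 and 3 above it, as for Cd74. The TBI vs. Sham difference was 2.42 (SE 0.66, adjusted p = 0.0388).

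RT1-DMb stood at -1.44, -1 and -1.33 in Naive, -1.38 and -0.46 in Sham, 0.18, 0.6 and 0.65 in TBI, 0.54, 1.17 and 0.63 in TBI+PMI-006, 0.84, 0.84 and 0.9 in TBI+JM6 and 0.91 and 1.13 in TBI+E2 rats. All TBI rats were above all Naive and Sham rats. It was higher in TBI vs. Sham by 1.39 (SE 0.27, adjusted p = 0.013) and in TBI vs. Naive by 1.73 (SE 0.25, adjusted p = 0.00438).

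RT1-DMa stood at 0.75, 0.71 and 0.7 in Naive, 0.65 and 1.68 in Sham, 1.61, 1.74 and 1.73 in TBI, 2.09, 2.34 and 1.85 in TBI+PMI-006, 1.86, 2.15 and 2.23 in TBI+JM6 and 1.9 and 2.34 in TBI+E2 rats. RT1-DMa, the alpha chain of the same exchanger, was higher in TBI vs. Naive by 0.98 (SE 0.24, adjusted p = 0.036). Sham rat 2 reached the TBI level and Sham rat 1 the Naive level, and the TBI vs. Sham difference of 0.53 (SE 0.27) had an adjusted p of 0.227.

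RT1-Db1 probe 1 stood at -2.82, -1.99 and -2.3 in Naive, -3.47 and -3.28 in Sham, -2.35, -0.65 and -0.52 in TBI, -0.73, 0.83 and -1.93 in TBI+PMI-006, -1.43, -1.49 and -1.64 in TBI+JM6 and -1.46 and -1.45 in TBI+E2 rats. RT1-Db1, the beta chain of RT1-D, differed by 2.2 in TBI vs. Sham (SE 0.65, adjusted p = 0.0526) at probe 1 and by 2.67 (SE 0.94, adjusted p = 0.0918) at the dimmer probe 2, and neither passed the threshold. RT1-Bb probe 1 stood at -4.22, -4.1 and -4.15 in Naive, -4.77 and -4.13 in Sham, -4.7, -1.65 and -1.12 in TBI, -2.06, -0.27 and -2.76 in TBI+PMI-006, -2.06, -2.46 and -2.44 in TBI+JM6 and -2.3 and -1.97 in TBI+E2 rats. RT1-Bb, the beta chain of the RT1-B molecule, was at its Naive and Sham level in TBI rat 1 and above it in TBI rats 2 and 3, so the groups overlapped (difference 1.96, SE 0.86, adjusted p = 0.171).

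**Figure D1:**
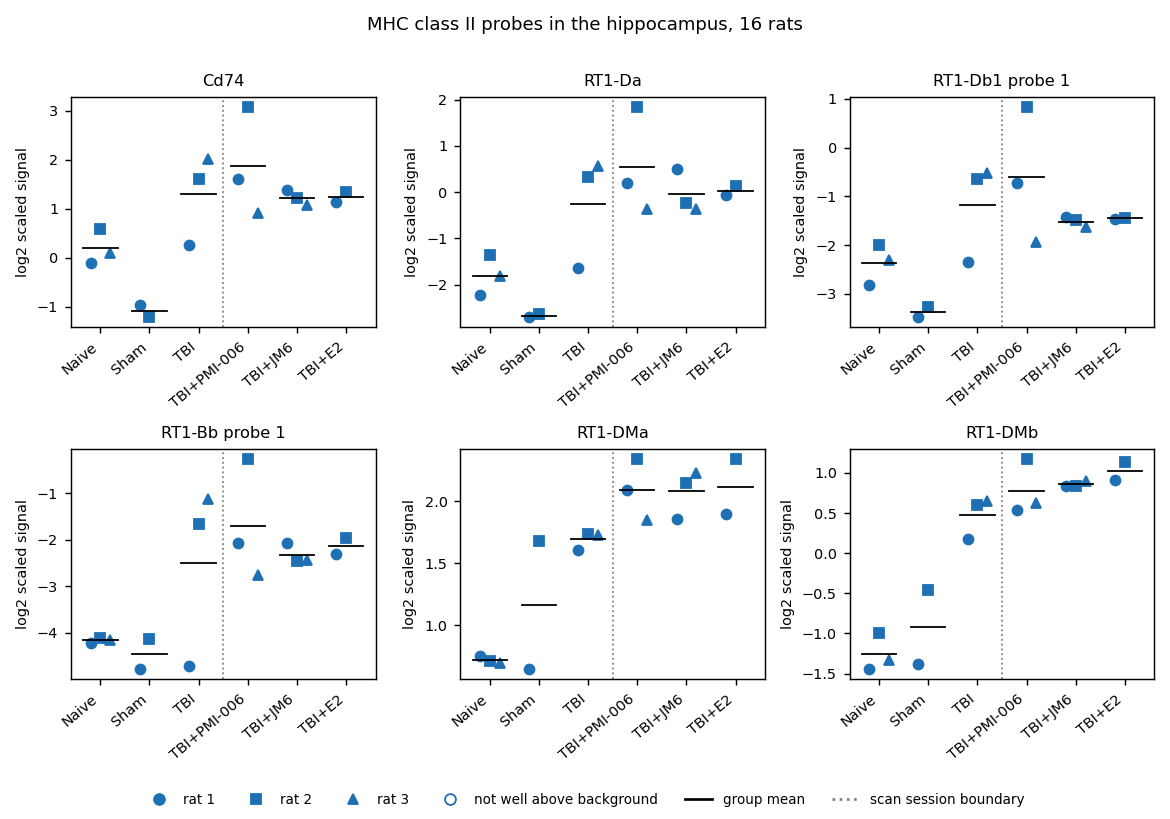
log2 scaled signal (vertical axis) of 6 class II probes in the 6 groups (horizontal axis), with 1 point per rat, shapes for rat numbers, bars for group means and a dotted line between the scan sessions. TBI rat 1 (circle) lies below TBI rats 2 and 3 for each probe shown, and TBI+PMI-006 rat 2 (square) lies highest of its group.

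The class II probes shared an order of rats in some groups and not in others. TBI rat 1 was the lowest TBI rat at 7 of the 8 class II probes (42.7% of all tested probes), Naive rat 2 the highest Naive rat at 7 (49.3%), and TBI+PMI-006 rat 2 the highest of its group at 8 (52%). For Cd74 that last rat stood at 3.07, the highest level of all 16 rats. At the 33 other class I probes TBI rat 1 was lowest at 23 and Naive rat 2 highest at 25. In the TBI+JM6 group rat 1 was highest at 4 class II probes and lowest at the other 4 (11.4% and 59.2% of all tested probes). Sham rat 2 was the higher Sham rat at 5 of 8 (71.8% of all tested probes), and TBI+E2 rat 2 the higher at 6 of 8 (72.4%). The median within-group SD was 0.8 for class II, 0.55 for the 50 members and 0.32 for all 22827 tested probes.

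The call of these differences depended on single rats and on the slide. In TBI vs. Sham the 3 class II calls became 0 without Sham rat 1, 2 without Sham rat 2, 5 without TBI rat 1, 1 without TBI rat 2 and 0 without TBI rat 3, while the class II median stayed between 1.59 and 2.84. With the slide as a block 0 of 50 members were called (0.136% of all probes), and the class II median was 2.02. Against Naive rat 3, on their own slide, the mean of the TBI rats was higher at 8 of 8 class II probes (median 1.52). Single TBI rats were not always above it. TBI rat 1 was below Naive rat 3 at RT1-Bb probe 1 (-4.7 and -4.15) and RT1-Db1 probe 1 (-2.35 and -2.3). TBI rat 3 was below it at the dim RT1-Bb probe 2 (-7.8 and -7.62). The mean of the Sham rats differed from that of Naive rats 1 and 2 on theirs by a median of -0.33. The share over all tested probes is not given for these means or for the counts with 1 rat left out.

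Markers of immune cells gave a mixed picture in the same rats. Of 10 microglia and macrophage markers, 3 were higher in TBI vs. Sham (Cd68, Fcgr1a and Itgam) and 2 were lower (P2ry12 and Tmem119), and the summed log2 level was 3.01 to 3.22 in Naive, 3.31 to 3.89 in Sham and 3.43 to 3.87 in TBI rats. Of 5 tested neutrophil and monocyte markers 4 were higher in TBI vs. Sham, among them S100a8, S100a9 and Itgal, and Mpo did not pass the filter. The summed level of the list was -4.5 to -3.8 in Naive, -3.36 to -2.82 in Sham and -1.74 to 1.52 in TBI rats. Of 6 T and NK cell markers 1 was higher in TBI vs. Sham, the T cell receptor chain Cd3d (0.92, adjusted p = 0.0474), and the summed level was -1.66, -3.34 and -1.96 in TBI rats 1, 2 and 3, -2.34 to -1.92 in Sham and -4.09 to -3.7 in Naive rats. Of 4 dendritic cell markers on the array 2 were tested. Of these 0 were called in TBI vs. Sham and 1 was higher in TBI vs. Naive. Their summed level was -3.21 to -2.74 in Naive, -3.22 to -2.84 in Sham and -2.93 to -2.37 in TBI rats. The summed neutrophil and monocyte level was -1.74, 1.52 and 0.27 in TBI rats 1, 2 and 3, so TBI rat 1, the lowest for Cd74, was lowest in this list. It was highest in the summed T and NK cell level, which mostly followed Cd3e (-1.98, -5.6 and -2.69 in TBI rats 1, 2 and 3). The markers of that list disagreed. TBI rat 1 was highest for Lck (-5.31, -5.62 and -5.56) but lowest for Cd3d (-5.08, -4.59 and -4.36), and lowest for the dim Cd3g and Nkg7. The part of these cells in the class II differences was not tested. In whole tissue fewer cells of a type and less RNA per cell cannot be told apart.

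In TBI vs. Naive 6 of 50 members were called, all higher (12%, against 4.71% of all tested probes, and 2.98% higher). They were RT1-DMa and RT1-DMb, the class I probes RT1-CE13, RT1-N3 and RT1-S2 probe 2, and Cd86, a ligand of CD28 on T cells. The class II median was 1.37 and the median of the other class I probes 0.65, where that of all tested probes was 0.04. The groups did not overlap at 24 members that were higher and 2 that were lower, against 12.7% and 10.6% of all tested probes. The number called was 2 without Naive rat 1, 2 without Naive rat 3, 10 without TBI rat 1, 2 without TBI rat 2 and 2 without TBI rat 3. With the slide as a block it was 0. The share of all tested probes is not given beside these counts.

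RT1-CE13 stood at -2.68, -2.46 and -2.61 in Naive, -2.08 and -1.34 in Sham, -1.62, -1.78 and -1.16 in TBI, 0.15, -0.42 and -0.62 in TBI+PMI-006, -0.34, -0.05 and -0.18 in TBI+JM6 and -0.37 and 0.17 in TBI+E2 rats. RT1-CE13 differed in TBI vs. Naive by 1.07 (SE 0.26, adjusted p = 0.0353). RT1-N3 stood at -4.5, -3.78 and -4.46 in Naive, -3.86 and -3.45 in Sham, -3.5, -2.65 and -2.52 in TBI, -2.5, -1.81 and -1.87 in TBI+PMI-006, -1.83, -2.02 and -2.32 in TBI+JM6 and -2.31 and -1.39 in TBI+E2 rats. RT1-N3 differed by 1.36 (SE 0.33, adjusted p = 0.0357), and for both probes every TBI rat was above every Naive rat. Under quantile normalization 4 of the 6 calls remained, and the adjusted p was 0.0814 for RT1-N3 and 0.0996 for RT1-S2 probe 2.

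Cd86 stood at -7, -6.54 and -6.33 in Naive, -6.24 and -5.32 in Sham, -4.86, -4.31 and -4.67 in TBI, -3.03, -3.04 and -4.04 in TBI+PMI-006, -3.3, -3.14 and -2.8 in TBI+JM6 and -3.65 and -3.25 in TBI+E2 rats. Cd86 was well above background in 0 of 3 Naive, 1 of 2 Sham and 3 of 3 TBI rats. It was at least 2.7-fold higher in TBI than in Naive rats (adjusted p = 0.00694). The fold is a bound because Naive rats had no measured level, and it sets the TBI mean against the lowest signal that was above background on the Naive arrays. TBI vs. Sham gave 1.17 (SE 0.36, adjusted p = 0.0566), and 1.02 (adjusted p = 0.0373) under quantile normalization.

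In Sham vs. Naive 5 of 50 members were called (10%, against 8.08% of all tested probes, 6.57% higher and 1.52% lower), a share near that of all probes, and 0 were called with the slide as a block (0.0658% of all probes). RT1-CE10, RT1-N1, RT1-N2 and RT1-S2 probe 2 were higher and RT1-T24-4 was lower, and 0 of 8 class II probes were called, with a median of -0.35. The Sham and Naive rats did not overlap at 17 members that were higher in Sham and 6 that were lower, against 25.1% and 14.4% of all tested probes. In TBI vs. Sham, RT1-CE10 and RT1-N1 were lower and RT1-T24-4 and RT1-CE4 were higher.

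RT1-N1 stood at -5.5, -5.15 and -5.49 in Naive, -3.05 and -1.95 in Sham, -4.87, -4.48 and -4.32 in TBI, -3.69, -3.1 and -1.65 in TBI+PMI-006, -1.46, -2.36 and -2.02 in TBI+JM6 and -2.44 and -1.41 in TBI+E2 rats. Both Sham rats were above all Naive and TBI rats. The difference was 2.88 in Sham vs. Naive (SE 0.53, adjusted p = 0.00845) and -2.05 in TBI vs. Sham (SE 0.53, adjusted p = 0.0315, and 0.0951 under quantile normalization).

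RT1-N2 stood at -4.95, -4.16 and -4.62 in Naive, -2.81 and -1.5 in Sham, -3.75, -3.03 and -2.91 in TBI, -2.88, -2.23 and -1.4 in TBI+PMI-006, -1.15, -1.68 and -1.59 in TBI+JM6 and -1.96 and -1.03 in TBI+E2 rats. RT1-N2, whose probe lies near that of RT1-N1 (chr20:2787802-2787861 and chr20:2788743-2788802), was likewise higher in both Sham rats than in all Naive and TBI rats. It differed by 2.42 in Sham vs. Naive (SE 0.48, adjusted p = 0.0116) and by -1.08 in TBI vs. Sham (SE 0.48, adjusted p = 0.176).

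RT1-CE10 stood at -7.29, -6.09 and -5.69 in Naive, -4.09 and -3.17 in Sham, -7.38, -5.72 and -6.35 in TBI, -3.65, -3.73 and -1.65 in TBI+PMI-006, -1.3, -1.74 and -1.67 in TBI+JM6 and -1.94 and -0.95 in TBI+E2 rats. Again both Sham rats were above all Naive and TBI rats, but only 1 of 3 TBI rats was above background. The difference was 2.73 in Sham vs. Naive (SE 0.67, adjusted p = 0.0274) and -2.86 in TBI vs. Sham (SE 0.67, adjusted p = 0.0229), and under quantile normalization the adjusted p was 0.0881 and 0.0579.

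RT1-T24-4 stood at -5.17, -4.41 and -4.34 in Naive, -7.01 and -7.22 in Sham, -3.89, -3.85 and -3.72 in TBI, -2.71, -3.28 and -4.42 in TBI+PMI-006, -3.95, -3.38 and -3.61 in TBI+JM6 and -3.44 and -2.42 in TBI+E2 rats. This probe ran the other way, and neither Sham rat was above background. RT1-T24-4 was at least 3.19-fold lower in Sham than in Naive (adjusted p = 0.00709) and at least 5.63-fold higher in TBI than in Sham rats (adjusted p = 0.00507).

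RT1-S2 probe 2 stood at -3.07, -2.53 and -2.91 in Naive, -1.69 and -1.38 in Sham, -2.11, -2.14 and -1.66 in TBI, -0.63, -0.96 and -0.46 in TBI+PMI-006, -0.29, -0.53 and -0.55 in TBI+JM6 and -0.78 and -0.18 in TBI+E2 rats. RT1-S2 probe 2 was higher than in Naive rats both in Sham, by 1.3 (SE 0.25, adjusted p = 0.0101), and in TBI, by 0.86 (SE 0.22, adjusted p = 0.0443). RT1-CE4 stood at -3.32, -2.71 and -3.31 in Naive, -3.65 and -3.29 in Sham, -2.36, -1.91 and -1.93 in TBI, -1.1, -1.44 and -2.72 in TBI+PMI-006, -2.46, -1.95 and -1.69 in TBI+JM6 and -2.14 and -1.9 in TBI+E2 rats. RT1-CE4 was higher in TBI vs. Sham by 1.4 (SE 0.40, adjusted p = 0.0468).

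The number of calls also changed when a single rat was left out. For the counts that follow the share of all tested probes is not given, so they are not read as a result about the members. In Sham vs. Naive the count was 8 without Naive rat 2 and 0 without Sham rat 2. The TBI vs. Sham count over all members was 1 without Sham rat 1, 3 without Sham rat 2, 12 without TBI rat 1, 3 without TBI rat 2 and 1 without TBI rat 3. Choroid plexus RNA differed widely between rats. Its marker Ttr was at 6.9 and 2.25 in Sham, 1.55, 6.24 and 1.2 in Naive and 1.77, -1.23 and -2.91 in TBI rats. The part of choroid plexus RNA in these differences was not tested. The RT1 genotype of these outbred rats is not given, and its part was not tested either.

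**Figure D2:**
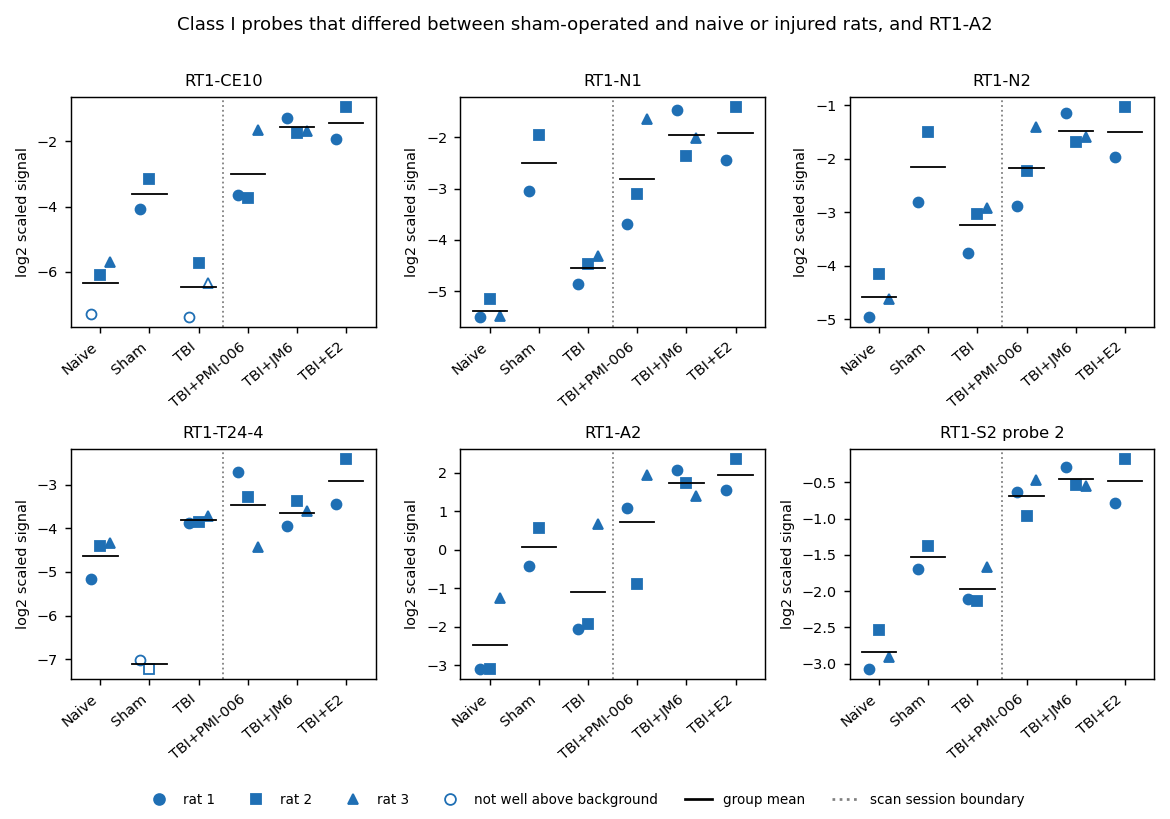
log2 scaled signal (vertical axis) of 6 class I probes in the 6 groups (horizontal axis), with 1 point per rat, open where it was not well above background, bars for group means and a dotted line between the scan sessions. Both Sham rats lie above all Naive and TBI rats for RT1-CE10, RT1-N1 and RT1-N2 and below them for RT1-T24-4.

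The classical class I probes passed no test among Naive, Sham and TBI rats. RT1-A1 probe 1 stood at 1.55, 1.89 and 1.46 in Naive, 1.92 and 2.1 in Sham, 1.98, 2.27 and 2.74 in TBI, 3.14, 2.76 and 2.5 in TBI+PMI-006, 2.67, 3.21 and 2.93 in TBI+JM6 and 2.91 and 3.01 in TBI+E2 rats. RT1-A2 stood at -3.09, -3.09 and -1.26 in Naive, -0.43 and 0.57 in Sham, -2.06, -1.92 and 0.66 in TBI, 1.09, -0.88 and 1.93 in TBI+PMI-006, 2.06, 1.74 and 1.39 in TBI+JM6 and 1.54 and 2.35 in TBI+E2 rats. RT1-A2 spanned 0.67 units within the TBI+JM6 group and 2.81 within the TBI+PMI-006 group, with a within-group SD of 1.1 (higher than at 97.8% of tested probes). RT1-A2 differed by 2.55 in Sham vs. Naive (SE 0.90, adjusted p = 0.105).

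The light chain and the loading genes were not called among these groups either. B2m stood at 0.59 in Naive rat 2, 0.89 in Sham rat 1, 0.66 and 1.58 in TBI rats 1 and 2, 3.1, 2.96 and 2.49 in TBI+PMI-006, 2.48, 3.14 and 2.9 in TBI+JM6 rats and 3 in TBI+E2 rat 1, and its spot was flagged as an outlier on the other 5 arrays. The fit dropped these spots. Tap1 stood at -4.28, -4.09 and -4.5 in Naive, -4.85 and -3.92 in Sham, -3.8, -2.67 and -2.92 in TBI, -2.28, -2.41 and -3.73 in TBI+PMI-006, -3.38, -2.68 and -2.45 in TBI+JM6 and -2.99 and -2.38 in TBI+E2 rats. As for class II, TBI rat 1 was the lowest TBI rat for Tap1. The TBI vs. Sham difference of Tap1 was 1.26 (SE 0.47, adjusted p = 0.11).

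Tap2 stood at -3.71, -4.55 and -4.81 in Naive, -3.22 and -3.84 in Sham, -4.79, -3.23 and -3.73 in TBI, -3.23, -3.84 and -2.62 in TBI+PMI-006, -2.05, -1.74 and -1.87 in TBI+JM6 and -2.08 and -1.38 in TBI+E2 rats. Tapbp stood at -2.03, -2.04 and -2.34 in Naive, -2.02 and -1.61 in Sham, -1.96, -1.59 and -1.85 in TBI, -1.35, -1.14 and -1.75 in TBI+PMI-006, -1.68, -1.13 and -1.4 in TBI+JM6 and -1.42 and -1.26 in TBI+E2 rats. Neither gene was called among Naive, Sham and TBI rats, with TBI vs. Sham differences of -0.39 (SE 0.47, adjusted p = 0.642) for Tap2 and 0.02 (SE 0.23, adjusted p = 0.967) for Tapbp. Cd80 stood at -8.19, -7.62 and -6.33 in Naive, -8.17 and -8.64 in Sham, -7.91, -7.76 and -7.86 in TBI, -4.12, -4.3 and -4.71 in TBI+PMI-006, -4.96, -4.33 and -4.08 in TBI+JM6 and -3.96 and -3.8 in TBI+E2 rats. Cd80, the other CD28 ligand, was above background in 0 of 8 Naive, Sham and TBI rats.

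Other genes of the pathway were read from lists of known members. Of 10 genes for peptide supply and class I loading, 0 were higher and 2 lower in TBI vs. Sham (the chaperones Canx, -2.61, and Pdia3, -0.93), 0 were called in TBI vs. Naive, and the same 2 genes were higher in Sham vs. Naive (3.01 and 0.98). The immunoproteasome subunit Psmb8 stood at -2.14, 0.07 and -0.18 and Psmb9 at -1.06, 0.64 and 0.71 in TBI rats 1, 2 and 3, and their TBI vs. Sham differences of 0.42 and 1.12 were not called. Of 6 tested genes for class II peptide processing, 1 was higher in TBI vs. Sham and in TBI vs. Naive, the thiol reductase Ifi30, by 1.28 (SE 0.35, adjusted p = 0.0414) and 1.52 (SE 0.32, adjusted p = 0.0204).

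Of 13 tested regulators, 0 were higher and 1 lower in TBI vs. Sham (Nfyb, a subunit of NF-Y, -0.86), 2 were higher in TBI vs. Naive (the interferon factor Irf9, 1.23, and Nfya, another subunit of NF-Y) and 3 in Sham vs. Naive (Irf9, 0.91, Nfya, and Nfyb, 1.08). Nfya was well above background in 0 of 3 Naive rats, so its difference from them is a bound, at least 1.41-fold for TBI and at least 1.88-fold for Sham rats (adjusted p = 0.0188 and 0.00503). Ifng, the gene of interferon gamma, did not pass the filter. Of 7 tested costimulators and receptors 0 were called in these 3 comparisons by limma. In TBI+JM6, TBI+PMI-006 and TBI+E2 vs. TBI, the numbers higher were 5, 4 and 5 of 10 for peptide supply, 3, 1 and 2 of 6 for class II processing, 8, 8 and 10 of 13 for regulators and 5, 3 and 5 of 7 for costimulation, where 69.9%, 56.7% and 70.2% of all tested probes were higher. Under quantile normalization, where 13.9%, 9.96% and 10.4% of all tested probes were higher, the numbers higher were 3, 3 and 2 for peptide supply and 1, 2 and 0 for costimulation. For class II processing they were 1, 0 and 0, and for regulators 1, 0 and 0 with 3, 2 and 2 lower. Between the drug groups 0 were called. Irf8 among the regulators and Cd4, Cd8a, Cd8b and Ctla4 among the costimulation genes passed the filter through drug groups alone. The filter favoured a drug vs. TBI difference at these genes, so the counts that hold them are a description.

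**Figure D3:**
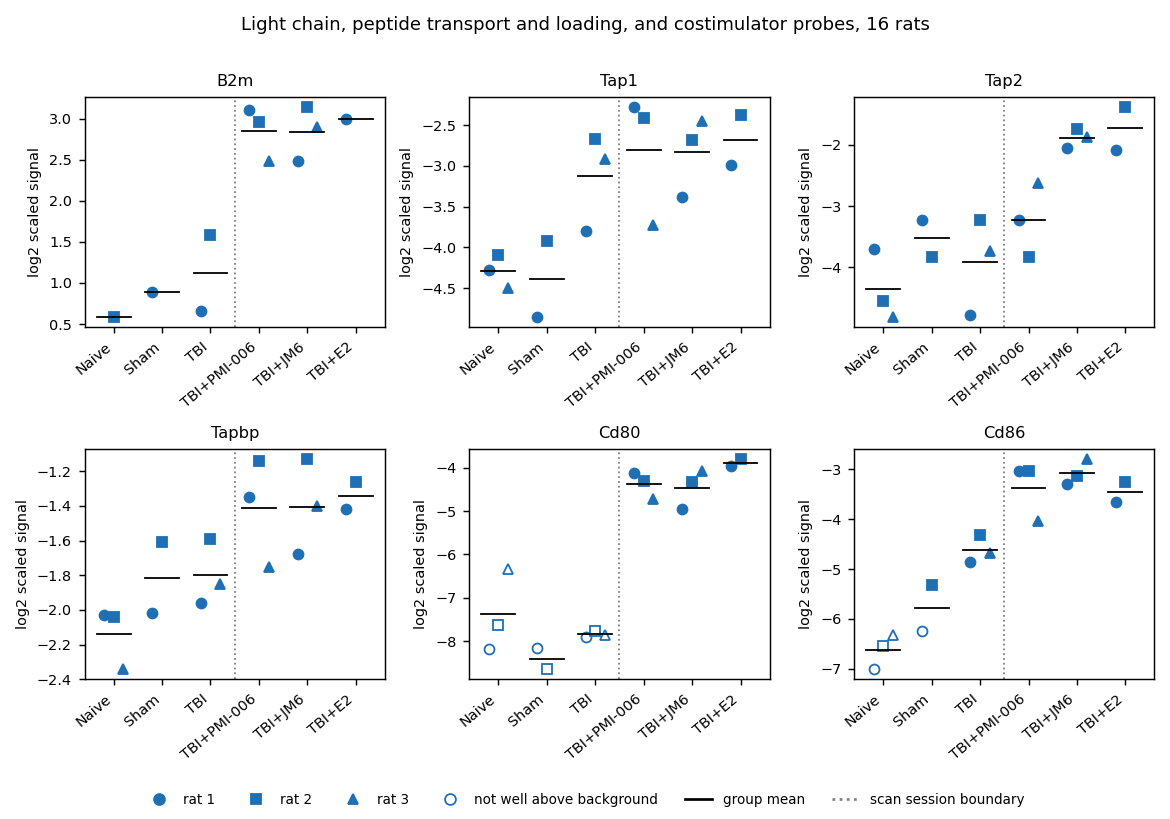
log2 scaled signal (vertical axis) of B2m, Tap1, Tap2, Tapbp, Cd80 and Cd86 in the 6 groups (horizontal axis), with 1 point per rat, open where it was not well above background, bars for group means and a dotted line between the scan sessions. Cd80 is open in all Naive, Sham and TBI rats and filled in all drug-treated rats, and B2m has no point for 5 arrays.

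Against TBI the drug groups were higher at many members, as were most probes of the array. In TBI+JM6 vs. TBI 27 of 50 members were called (54%), where 70.1% of all tested probes were (69.9% higher). In TBI+PMI-006 vs. TBI there were 24 (48%, against 56.7%), and in TBI+E2 vs. TBI 30 (60%, against 70.3%, and 70.2% higher). For TBI+PMI-006, 56.7% were higher as well. All these member calls were higher, the member medians were 0.92, 0.8 and 1.06, and those of all tested probes were 0.99, 0.79 and 1.08. Quantile normalization, which sets the distribution of every array equal, left 5 members higher and 3 lower for TBI+JM6 (of all probes 27.2% were called, 13.9% higher and 13.3% lower). It left 3 higher and 1 lower for TBI+PMI-006 (19.2%, 9.96% and 9.21%) and 3 higher and 1 lower for TBI+E2 (20.4%, 10.4% and 10%). Of the 50 members 8, all with values on every array, passed the filter through drug groups alone, so the filter favoured a difference from other groups. These were RT1-Bb probe 2, RT1-CE5 probe 2, RT1-CE6, RT1-M1-2, RT1-M1-4, RT1-M4, RT1-T24-2 and Cd80. They made up 5, 6 and 7 of the calls for TBI+JM6, TBI+PMI-006 and TBI+E2, and the calls among the other 42 were 22, 18 and 23. B2m, counted among those 42, also passed through drug groups alone, since its flagged spots counted as not above background. It was above background on each array where it was measured. Every measured rat of the drug group was above every TBI rat at 29, 24 and 37 of the 50 members for TBI+JM6, TBI+PMI-006 and TBI+E2. The share of all tested probes separated in this way is not given. The 3 comparisons share the TBI rats. For the next count, too, the share of all tested probes is not given. Without TBI+E2 rat 2 the TBI+E2 count was 15.

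Class II was not called in any drug group vs. TBI. The medians over the 8 class II probes were 0.19 for TBI+JM6, 0.6 for TBI+PMI-006 and 0.32 for TBI+E2 vs. TBI, and -0.57, -0.01 and -0.54 under quantile normalization. With a GC trend removed, 2 class II probes were called for TBI+JM6 and 2 for TBI+E2. For Cd74 the difference was -0.07 (SE 0.50, adjusted p = 0.903), 0.57 (SE 0.50, adjusted p = 0.335) and -0.05 (SE 0.56, adjusted p = 0.933).

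Under percentile scaling and quantile normalization RT1-CE10 and B2m were higher in each drug group vs. TBI. RT1-CE10 differed from TBI by 4.91 in TBI+JM6 (SE 0.60, adjusted p = 2.67e-05), 3.47 in TBI+PMI-006 (SE 0.60, adjusted p = 0.000462) and 5.04 in TBI+E2 rats (SE 0.67, adjusted p = 5.86e-05), and by 3.45, 1.99 and 3.52 under quantile normalization. All drug-treated rats were above all TBI rats, and all but TBI+PMI-006 rats 1 and 2 were above both Sham rats. Only 1 of 3 TBI rats was above background at RT1-CE10, so the size of these differences is uncertain. Under other processing or with 1 rat left out they ranged from 2.62 to 5.29, 1.25 to 3.86 and 2.48 to 5.53. In TBI+PMI-006 vs. TBI 1 of 18 such alternatives lost the call.

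B2m differed by 1.72 (SE 0.34, adjusted p = 0.00271) in TBI+JM6 and 1.73 (SE 0.34, adjusted p = 0.00359) in TBI+PMI-006 vs. TBI, with 2 TBI rats measured. In TBI+E2, with 1 rat measured, the difference was 1.88. Under other processing or with 1 rat left out these ranged from 0.83 to 2.18, 1 to 2.19 and 0.93 to 2.34. In TBI+JM6 and in TBI+PMI-006 vs. TBI 1 of 18 such alternatives lost the call. Cd80 was at least 2.85-, 3.01- and 4.24-fold higher in TBI+JM6, TBI+PMI-006 and TBI+E2 than in TBI rats, a description without a test. It passed the filter through the drug groups alone, so the filter favoured a difference. RT1-M3-1, which resembles a presenter of formylated peptides, changed sign with the scaling: it differed by 0.39, 0.22 and 0.31, none of them called, and was lower by -0.48, -0.49 and -0.65 under quantile normalization (adjusted p = 0.0181, 0.0219 and 0.0101).

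**Figure D4:**
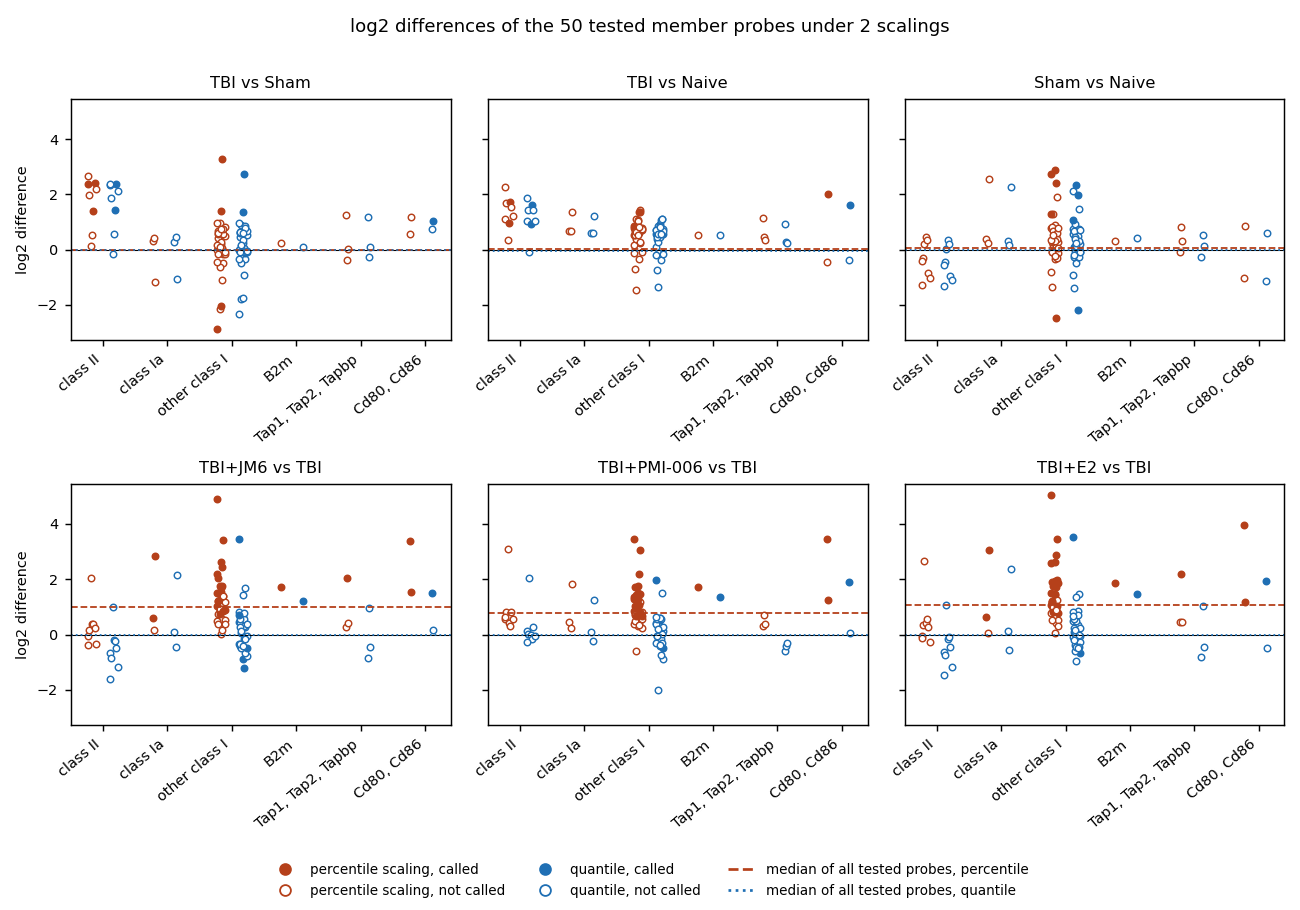
log2 differences (vertical axis) of the 50 tested probes by role (horizontal axis) in 6 comparisons, with red points for percentile scaling, blue for quantile normalization, filled where called, and lines for the median of all tested probes. In the upper row all 8 red class II points lie above 0 in TBI vs. Sham and in TBI vs. Naive, and in the lower row most of the red points follow the raised median of all probes while the blue points lie around 0.

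Some other members were called in drug vs. TBI comparisons with percentile scaling only. Cd86 was higher by 1.53, 1.24 and 1.16 in TBI+JM6, TBI+PMI-006 and TBI+E2 vs. TBI (adjusted p = 0.00108, 0.00542 and 0.0114) and differed by 0.16, 0.06 and -0.49 under quantile normalization. Tap2 was higher by 2.03 in TBI+JM6 and 2.19 in TBI+E2 vs. TBI (adjusted p = 0.00111 and 0.00148), and RT1-A2 by 2.84 and 3.05 (adjusted p = 0.00749 and 0.00942), and in both genes the TBI+PMI-006 difference was not called. RT1-N1, RT1-N2, RT1-N3 and RT1-CE13 were higher in all 3 drug groups.

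The remaining RT1 probes called vs. TBI are class I. RT1-EC2 probe 2 stood at -3.3, -3.2 and -3.51 in Naive, -3.09 and -2.93 in Sham, -2.84, -2.55 and -2.8 in TBI, -1.26, -1.45 and -1.61 in TBI+PMI-006, -1.58, -0.75 and -1.21 in TBI+JM6 and -1.39 and -1.14 in TBI+E2 rats. RT1-EC2 probe 1 stood at -2.66, -1.89 and -2.42 in Naive, -2.12 and -1.87 in Sham, -1.85, -2 and -1.92 in TBI, -0.58, -0.81 and -1.4 in TBI+PMI-006, -1.23, -1.03 and -0.91 in TBI+JM6 and -1.33 and -0.75 in TBI+E2 rats. RT1-CE12 stood at -5.29, -4.86 and -4.46 in Naive, -4.89 and -4.52 in Sham, -3.42, -3.77 and -4.09 in TBI, -1.8, -2.52 and -3.01 in TBI+PMI-006, -2.83, -3.26 and -2.62 in TBI+JM6 and -3.09 and -2.51 in TBI+E2 rats. Every drug-treated rat was above every TBI rat for all 3 probes, and RT1-EC2 probe 2 was also called in TBI+JM6 vs. TBI under quantile normalization (0.65, adjusted p = 0.0199), as was RT1-S2 probe 2 (0.72, adjusted p = 0.0448). RT1-CE4 (-0.89, adjusted p = 0.0497) and RT1-T24-4 (-1.2, adjusted p = 0.0415) were lower there.

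RT1-S2 probe 1 stood at 1.02, 1.22 and 0.84 in Naive, 1.59 and 2.06 in Sham, 1.46, 1.6 and 2.22 in TBI, 2.62, 2.46 and 2.22 in TBI+PMI-006, 2.36, 2.95 and 2.64 in TBI+JM6 and 2.46 and 2.64 in TBI+E2 rats. RT1-CE5 probe 1 stood at 0.39, 0.94 and 0.32 in Naive, 1 and 1.18 in Sham, 0.96, 1.06 and 1.39 in TBI, 2.02, 1.8 and 1.76 in TBI+PMI-006, 2.01, 2.12 and 1.99 in TBI+JM6 and 1.92 and 2.23 in TBI+E2 rats. RT1-M6-1 probe 1 stood at -0.31, -0.13 and -0.62 in Naive, 0.14 and 0.77 in Sham, 0.01, 0.25 and 0.63 in TBI, 1.4, 1.33 and 1.32 in TBI+PMI-006, 1.39, 1.81 and 1.3 in TBI+JM6 and 1.34 and 1.64 in TBI+E2 rats. These probes share the runs printed above, and in each every Naive rat was below every TBI rat and every TBI rat at or below every drug-treated rat. RT1-CE2 probe 1 stood at 0.28, 0.88 and 0.03 in Naive, 1.27 and 1.11 in Sham, 0.86, 1.1 and 1.53 in TBI, 2.32, 1.99 and 1.73 in TBI+PMI-006, 1.92, 2.54 and 2.14 in TBI+JM6 and 2.26 and 2.22 in TBI+E2 rats. RT1-T18 probe 1 stood at -0.7, 0.22 and -0.61 in Naive, 0.14 and 0.2 in Sham, 0, 0.26 and 0.54 in TBI, 1.1, 1.01 and 0.72 in TBI+PMI-006, 0.95, 1.11 and 1 in TBI+JM6 and 0.95 and 1.2 in TBI+E2 rats. At these probes, too, every drug-treated rat was above every TBI rat, as at many other members, while Naive and TBI rats overlapped.

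RT1-CE2 probe 2 stood at -5.69, -5.54 and -7.22 in Naive, -5.54 and -6.18 in Sham, -5.02, -4.66 and -6.62 in TBI, -3.7, -3.15 and -4.28 in TBI+PMI-006, -4.15, -2.91 and -3.15 in TBI+JM6 and -3.56 and -3.49 in TBI+E2 rats. RT1-CE3 stood at -4.93, -3.79 and -4.9 in Naive, -3.06 and -3.48 in Sham, -3.92, -3.55 and -4.19 in TBI, -2.19, -2.05 and -3.08 in TBI+PMI-006, -3.07, -1.67 and -1.68 in TBI+JM6 and -1.72 and -2.5 in TBI+E2 rats. RT1-Cl stood at -3.31, -3 and -3.25 in Naive, -2.93 and -3.62 in Sham, -3.01, -2.5 and -2.56 in TBI, -1.58, -1.6 and -2.71 in TBI+PMI-006, -2.26, -1.17 and -1.03 in TBI+JM6 and -1.47 and -1.47 in TBI+E2 rats. TBI+PMI-006 rat 3 and TBI+JM6 rat 1 were the lowest drug-treated rats at all 3. RT1-CE11 stood at -3.11, -2.3 and -3.48 in Naive, -3.81 and -4.83 in Sham, -3.59, -3.83 and -3.56 in TBI, -2.85, -2.39 and -3.65 in TBI+PMI-006, -3.59, -2.36 and -2.76 in TBI+JM6 and -2.39 and -2.59 in TBI+E2 rats. RT1-CE11 was called in TBI+E2 vs. TBI alone of the 9 comparisons (1.17, SE 0.45, adjusted p = 0.0348, and -0.07 under quantile normalization).

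The dimmest probes were near background in Naive, Sham and TBI rats. RT1-CE5 probe 2 stood at -8.34, -6.21 and -8.12 in Naive, -8.19 and -6.13 in Sham, -8.09, -6.88 and -7.03 in TBI, -4.33, -4.29 and -4.26 in TBI+PMI-006, -3.83, -4 and -3.93 in TBI+JM6 and -4.37 and -3.42 in TBI+E2 rats. RT1-M1-2 stood at -6.42, -6.12 and -5.91 in Naive, -7.01 and -5.78 in Sham, -6.96, -5.84 and -6.61 in TBI, -3.94, -3.94 and -4.94 in TBI+PMI-006, -4.59, -3.87 and -3.65 in TBI+JM6 and -3.94 and -3.27 in TBI+E2 rats. RT1-M1-4 stood at -8.38, -7.49 and -5.94 in Naive, -8.28 and -6.88 in Sham, -7.43, -6.21 and -7.36 in TBI, -5.53, -4.95 and -6.07 in TBI+PMI-006, -6.15, -5.85 and -4.83 in TBI+JM6 and -5.1 and -4.99 in TBI+E2 rats. RT1-CE5 probe 2 was above background in 0 of 3 TBI rats, and the bounds were at least 4.13-fold higher with TBI+JM6, 3.19-fold with TBI+PMI-006 and 4.2-fold with TBI+E2, given without a test for the same reason as Cd80. RT1-M4 stood at -8.13, -8.21 and -8.2 in Naive, -8.42 and -7.23 in Sham, -8.21, -6.64 and -8.07 in TBI, -5.34, -6.64 and -6.91 in TBI+PMI-006, -5.5, -6.25 and -4.56 in TBI+JM6 and -4.85 and -5.25 in TBI+E2 rats. RT1-T24-2 stood at -7.42, -5.93 and -8.18 in Naive, -7.68 and -7.13 in Sham, -7.72, -5.29 and -6.96 in TBI, -5.15, -5.05 and -5.26 in TBI+PMI-006, -4.78, -5.58 and -4.6 in TBI+JM6 and -5.17 and -4.3 in TBI+E2 rats. RT1-CE6 stood at -7.67, -6.41 and -6.01 in Naive, -7.28 and -6.34 in Sham, -6.49, -5.36 and -6.09 in TBI, -5.22, -4.3 and -6.03 in TBI+PMI-006, -5.43, -4.72 and -4.22 in TBI+JM6 and -4.22 and -4.05 in TBI+E2 rats. These levels moved with the higher number of probes above background on the drug arrays, whose part in the result was not tested.

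Between the drug groups no member was called. The limma counts were 0 of 50 in TBI+JM6 vs. TBI+PMI-006, TBI+JM6 vs. TBI+E2 and TBI+PMI-006 vs. TBI+E2, with 0.0131%, 0.0175% and 0.11% of all tested probes called. At an unadjusted p under 0.05 there were 3, 0 and 2 members, namely RT1-CE10, RT1-M6-1 probe 2 and Tap2 in the first and RT1-CE10 and Tap2 in the last. The t-test of the methods (unadjusted p under 0.05 and over 1.2-fold) passed 2, 0 and 0. The share of all tested probes is not given for these unadjusted counts, so they are not read as a result about the members. For Tap2 the difference was 1.35 in TBI+JM6 vs. TBI+PMI-006 (SE 0.42, adjusted p = 0.368) and -1.5 in TBI+PMI-006 vs. TBI+E2 (SE 0.47, adjusted p = 0.179).

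Rats of 1 drug group differed among themselves at many members. TBI+PMI-006 rat 3 and TBI+JM6 rat 1 were the lowest 2 of the 8 drug-treated rats at 14 of 49 members with all values under quantile normalization (28.6%), where this held for 4.33% of all tested probes. With percentile scaling it was 26 of 49 (53.1%) and 24.3%. Of the probes with a shared stretch printed above, RT1-A1 probe 2, RT1-CE16 and RT1-S3 were among the 14, and RT1-A2, RT1-S2 probe 1, RT1-CE5 probe 1 and RT1-M6-1 probe 1 were not.

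RT1-A1 probe 2 stood at 0.36, 0.62 and 0.01 in Naive, 0.65 and 0.49 in Sham, 0.73, 0.99 and 1.26 in TBI, 2.13, 1.79 and -0.18 in TBI+PMI-006, 0.08, 1.87 and 1.54 in TBI+JM6 and 1.59 and 0.51 in TBI+E2 rats. RT1-CE14 stood at -1.42, -1.06 and -1.54 in Naive, -0.86 and -1.55 in Sham, -0.85, -0.52 and -0.44 in TBI, 0.31, 0.2 and -1.14 in TBI+PMI-006, -0.97, 0.46 and 0.36 in TBI+JM6 and 0.25 and -0.62 in TBI+E2 rats. RT1-CE16 stood at 0.4, 0.7 and -0.03 in Naive, 0.88 and 0.4 in Sham, 0.84, 1.29 and 1.31 in TBI, 2.28, 2.11 and 0.79 in TBI+PMI-006, 0.95, 2.31 and 1.8 in TBI+JM6 and 2.08 and 1.29 in TBI+E2 rats. TBI+PMI-006 rats 1 and 2 were high and rat 3 low at each, although all were given the same compound, and TBI+E2 rat 2 was lower than TBI+E2 rat 1.

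The other way round, TBI+PMI-006 rats 1 and 2 were the lowest 2 at RT1-A2, RT1-CE10, RT1-M6-1 probe 2, RT1-N1, RT1-N2 and Tap2. This is 6 of 49 members (12.2%) against 9.39% of all tested probes under quantile normalization, a share near that of all probes. With percentile scaling it was 12.2% and 5.64%. RT1-M6-1 probe 2 stood at -3.02, -2.28 and -2.93 in Naive, -1.84 and -2.31 in Sham, -3.25, -3.15 and -6.24 in TBI, -5.28, -5.58 and -3.55 in TBI+PMI-006, -2.93, -3.37 and -3.54 in TBI+JM6 and -3.21 and -3.25 in TBI+E2 rats. TBI rat 3 and TBI+PMI-006 rats 1 and 2 were the lowest of the 16 rats here. These splits were seen in the data and are given as a description without a test. The part of the RT1 genotype of the rats, which is not given, was not tested.

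**Figure D5:**
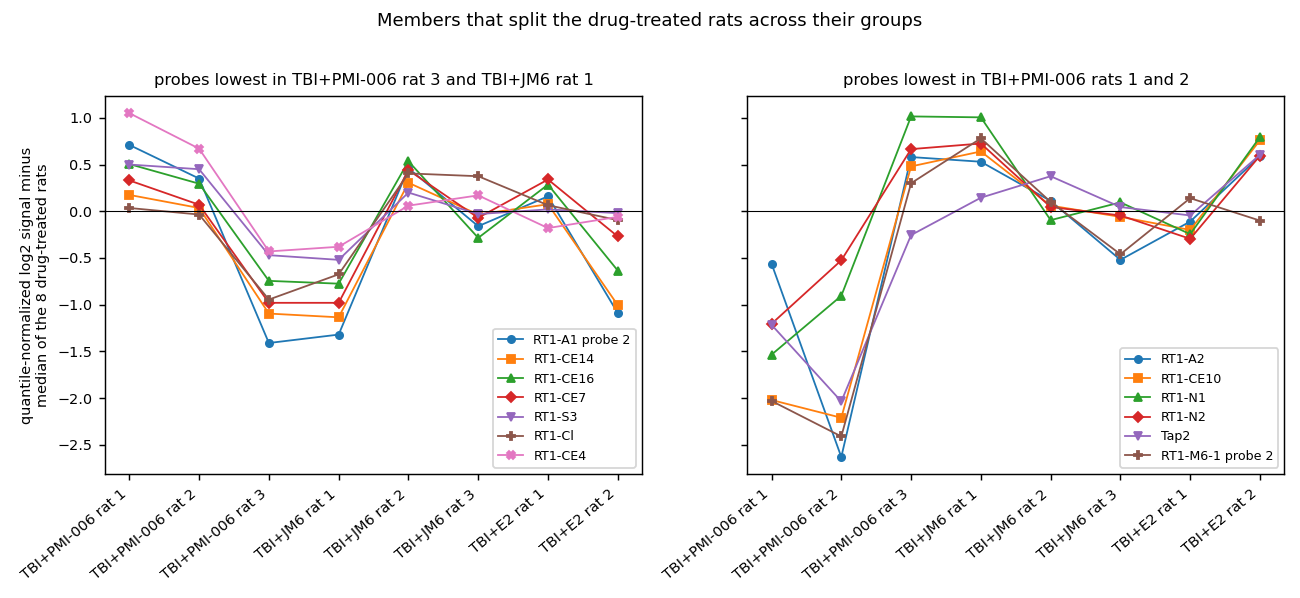
Quantile-normalized log2 signal minus the median of the 8 drug-treated rats (vertical axis) for each drug-treated rat (horizontal axis), with 1 line per probe. On the left TBI+PMI-006 rat 3 and TBI+JM6 rat 1 lie lowest at all 7 probes, and on the right TBI+PMI-006 rats 1 and 2 lie lowest at all 6. The probes were picked for these orders, so the orders follow from the choice.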

How the data were processed

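Total RNA of whole hippocampus was amplified with either of 2 kits (which rat had which is not given) and hybridised to 1-colour Agilent rat arrays, 1 rat per array. The deposited intensity values came from Agilent Feature Extraction 9.5.3.1 and were background-subtracted and detrended within each array. A further table deposited by the authors holds scaled ratio values on a linear scale and served as an alternative. Here each array's processed signal was divided by its 75th percentile over probes well above background and put on a log2 scale, control spots and flagged outlier spots were left out, and spots of 1 probe were averaged. Of 30367 probes, 22827 were tested, those that the deposited flags put well above background in all arrays of 1 group or more. No count lies behind an array value, and the number of arrays limits the precision.

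One limma (3.58.1, R 4.3.3) fit over 16 arrays with 6 groups and no covariate gave 9 comparisons, with Benjamini-Hochberg adjustment over all tested probes at 0.05. Each array is a separate rat. Every tested member could be named, and per-rat values are given for each RT1 probe called in at least 1 comparison and for Cd74, B2m, Tap1, Tap2, Tapbp, Cd80 and Cd86. The members and gene lists were chosen with earlier results of these data known. Probes of 1 gene are numbered by mean signal. Alternatives were another background correction, scaling, filter, test, a block for slide or replicate number, and leaving out each rat. The scripts were tested on simulated data. Some genes and 1 probe sequence are not reported here.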

Additional observations from a re-analysis of the deposited data

How the results depend on the processing

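The number of members called depended on the processing. TBI vs. Sham (7 as reported) gave 0 with normexp, 2 with scaling to E1A spots, 12 with a GC trend removed, 1 with both groups fitted alone, 0 with slide as a fixed block, 12 with slide as a random block and 0 by the methods' t-test after adjustment. TBI vs. Naive (6) gave 1 with normexp, 2 without a filter, 0 with both groups alone, 0 with the slide block, and 18 and 0 by the methods' t-test before and after adjustment. Sham vs. Naive (5) gave 0 with normexp, 3 with E1A scaling, 2 with both groups alone, 0 with the slide block and 0 by the adjusted t-test. For TBI+JM6 (27), TBI+PMI-006 (24) and TBI+E2 (30) vs. TBI the counts were 11, 4 and 9 with normexp, 8, 4 and 4 with quantile normalization, 12, 7 and 10 with the percentile over all probes, 14, 5 and 7 with E1A scaling, 13, 7 and 10 with the GC trend removed, 8, 5 and 4 with the deposited table, and 17, 10 and 15 by the adjusted t-test. With only probes above background on all arrays they were 14 for TBI+PMI-006 and 19 for TBI+E2. The methods' unadjusted t-test gave 2 in TBI+JM6 vs. TBI+PMI-006. The share of all tested probes called moved as well. In TBI+JM6, TBI+PMI-006 and TBI+E2 vs. TBI it was 70.1%, 56.7% and 70.3% as reported. With quantile normalization it was 27.2%, 19.2% and 20.4%. The other counts here are given without that share, so they do not tell a change of the members from one of the whole array. The cause of these changes was not tested.

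Leaving out 1 rat gave 1 to 12 in TBI vs. Sham, 2 to 10 in TBI vs. Naive, 0 to 8 in Sham vs. Naive, 23 to 30 in TBI+JM6, 16 to 31 in TBI+PMI-006 and 15 to 27 in TBI+E2 vs. TBI, and 0 to 0 between the drug groups. Where this left 1 Sham or TBI+E2 rat, that rat was assumed to vary like the other groups. The share of all tested probes called is not given for these counts or for those of the replicate block. The replicate numbers did not pair the rats (correlations of -0.19 to 0.18). A replicate block gave 6, 7 and 6 calls in TBI vs. Sham, TBI vs. Naive and Sham vs. Naive, 30, 24 and 28 in TBI+JM6, TBI+PMI-006 and TBI+E2 vs. TBI and 0 between the drug groups, and turned B2m in TBI vs. Sham to -0.01.

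Some differences changed sign. In TBI+E2, TBI+JM6 and TBI+PMI-006 vs. TBI, RT1-DMb was at -0.09, -0.24 and -0.17 with quantile normalization, -0.29, -0.40 and -0.34 with the percentile over all probes, -0.14, -0.11 and -0.21 with E1A scaling, -0.64, -0.68 and -0.52 with the GC trend removed and -0.07, -0.23 and -0.14 in the deposited table. Cd86 in TBI+E2 vs. TBI was -0.49 with quantile normalization and -0.48 in the deposited table. In TBI vs. Sham, B2m was -0.23 without TBI rat 2 and up to 0.69 without another rat, and Tap2 was 0.08 with normexp, 0.30 with the slide block, 0.05 without TBI rat 1 and down to -0.73 without another rat. Tapbp was -0.02 with slide as a random block, -0.19 without Sham rat 1, -0.09 without TBI rat 2 and up to 0.22 without another rat. Of the other values of single genes under an alternative, 500 kept direction and side of the threshold, 168 lost the call and 9 gained one.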

Other observations

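Canx, a chaperone that folds class I heavy chains before they meet B2m, stood at -1.89 and -1.67 in Sham rats, at -4.73, -4.92 and -4.71 in Naive rats and at -3.51, -4.76 and -4.91 in TBI rats. Both Sham rats were above all Naive and TBI rats, as they were for RT1-CE10, RT1-N1 and RT1-N2. In drug-treated rats Canx ranged from -1.70 to -0.57.

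Probes of 1 gene did not always agree. RT1-Bb probe 2, above background in 1 Naive, 1 Sham and 1 TBI rat, had a within-group SD of 2.30 against 1.05 for RT1-Bb probe 1. RT1-M6-1 probe 1 was called in all 3 drug groups vs. TBI, and probe 2 in none of them.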
